A study of Mus musculus with 12 samples.

Results

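The tumour suppressor p53 is a transcription factor that is held at a low level by the ubiquitin ligase Mdm2 and its partner Mdm4, and is released by DNA damage and other stress. It then raises a set of target genes that stop the cell cycle, start apoptosis, repair DNA and, through Mdm2 itself, switch the response off again. In macrophages and microglia several of these targets are also known to respond to inflammatory signals.

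The genes described here are a list of 33 mouse p53 pathway genes, taken by symbol. The list names no measured value, but it was drawn up with earlier results of these data known. Of these, 30 had an array feature of their own among 22180 genes tested. Ddb2, a DNA damage sensor, shared its feature with Acp2, and Trp53, which encodes p53, and the pore-forming death gene Bax were not listed with a feature in the annotation used here, so these 3 genes were not analysed here. Among the 30 measured genes, 23 had a mean signal of 5 or more and 7 were dimmer than that. Values are RMA signals on a log2 scale, so a difference of 1 is a 2-fold change, and signals of different genes are not compared as amounts because each feature has its own probes.

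The cells were BV2, a mouse microglial line immortalised with oncogenes, and a single line stands for microglia throughout. The 12 arrays fell into 4 groups of 3, all of wild-type genotype per the labels and all in 1.5% DMSO. Cells of the telmisartan+LPS group had the drug for 2 h and then LPS for 1 h, those of the LPS group had vehicle and then LPS for 1 h, those of the telmisartan group had the drug for 3 h, and those of the DMSO group had vehicle for 3 h. LPS, lipopolysaccharide of bacterial cell walls, activates Toll-like receptor 4, and telmisartan blocks the angiotensin II type 1 receptor and partly activates PPAR gamma. The sources used here do not give the dose of either agent. The labels call the samples of a group independent without tying an array to its own culture, so the spread behind each p-value may be partly technical.

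Of 12 microglia and macrophage markers, 10 had a mean signal of 5 or more, with Cd68, a lysosomal protein, at 12.23 and the growth factor receptor Csf1r at 10.47. P2ry12 and Tmem119, which mark resting microglia in tissue, were dim at 3.58 and 4.84. All 4 measured astrocyte, 3 oligodendrocyte and 4 fibroblast markers were under 5, as were 3 of 4 neuronal markers. The LPS treatment was visible in all 6 response genes fixed as a check, among them the NF-kB inhibitor gene Nfkbia, which rose by 1.04 (SE 0.07) without the drug and by 0.84 (SE 0.07) with it (limma, Benjamini-Hochberg adjusted p = 1.71e-06 and 2.63e-05). In a principal component analysis of all genes, telmisartan+LPS replicate 3 lay alone on the second component, at 20.18, and telmisartan+LPS replicate 1 on the third, at 17.31. The remaining positions on both components were between -9.78 and 7.28. The spread of the p53 targets was widest in the telmisartan+LPS group, with a median SD of 0.127, against 0.089 in LPS, 0.0835 in telmisartan and 0.0757 in DMSO. All genes had the same order, with 0.11 in telmisartan+LPS, 0.0954 in LPS, 0.0929 in telmisartan and 0.0907 in DMSO.

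**Figure D1:**
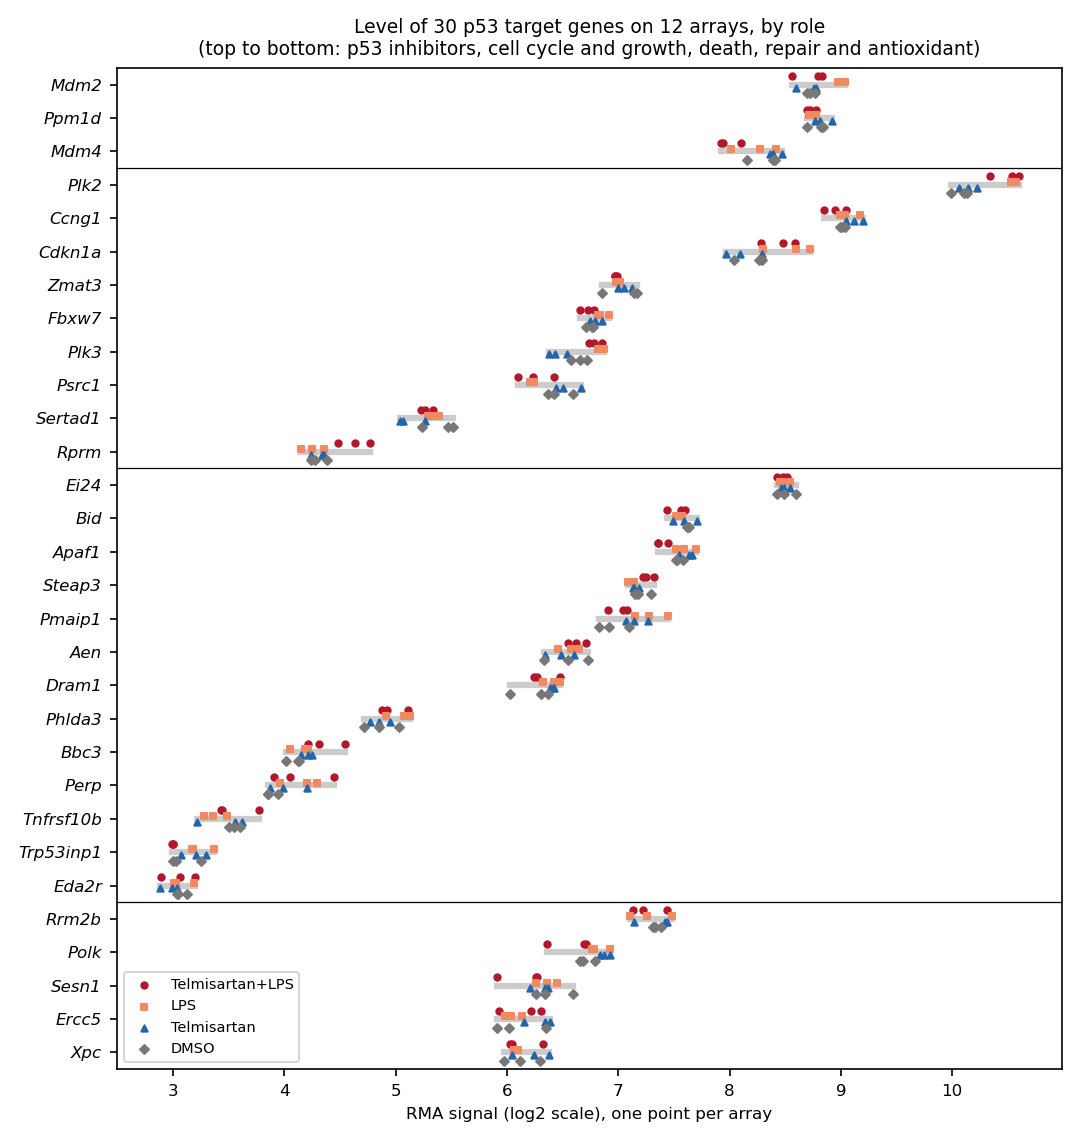
RMA signal (log2 scale) of the 30 measured p53 target genes on each of 12 arrays, grouped by role, with 1 point per array coloured by treatment and a grey bar from the lowest to the highest array. Plk2 was the brightest feature at a mean of 10.31 and Eda2r the dimmest at 3.04, and the arrays of 1 gene differed far less than the genes did.

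The bases before the transcription start are shown for the 4 targets on which the account of LPS turns: the polo-like kinase genes Plk2 and Plk3, the cell cycle inhibitor gene Cdkn1a (p21) and Mdm2. They are RefSeq sequences of build GRCm38.p6, 250 bases up to the start, read 5′ to 3′ on the strand of the gene, with any motif match in capitals. The windows are chr13:110394794-110395043 (plus strand) for Plk2, chr4:117133964-117134213 (minus strand) for Plk3, chr17:29090729-29090978 (plus strand) for Cdkn1a, the more upstream of its 2 listed starts, and chr10:117710759-117711008 (minus strand) for Mdm2.
Plk2: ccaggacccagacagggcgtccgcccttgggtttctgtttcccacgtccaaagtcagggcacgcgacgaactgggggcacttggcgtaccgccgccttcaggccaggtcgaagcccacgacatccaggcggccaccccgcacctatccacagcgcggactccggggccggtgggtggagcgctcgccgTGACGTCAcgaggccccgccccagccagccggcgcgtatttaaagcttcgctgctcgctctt
Plk3: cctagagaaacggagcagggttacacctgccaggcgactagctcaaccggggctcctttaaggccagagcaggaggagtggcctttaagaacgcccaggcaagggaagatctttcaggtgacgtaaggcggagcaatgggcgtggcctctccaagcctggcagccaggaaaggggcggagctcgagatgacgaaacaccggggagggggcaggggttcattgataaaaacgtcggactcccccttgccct
Cdkn1a: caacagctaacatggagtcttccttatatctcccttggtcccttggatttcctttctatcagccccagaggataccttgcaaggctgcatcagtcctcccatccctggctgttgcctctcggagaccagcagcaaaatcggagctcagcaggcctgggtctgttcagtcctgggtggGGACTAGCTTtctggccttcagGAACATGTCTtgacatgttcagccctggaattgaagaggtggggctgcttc
Mdm2: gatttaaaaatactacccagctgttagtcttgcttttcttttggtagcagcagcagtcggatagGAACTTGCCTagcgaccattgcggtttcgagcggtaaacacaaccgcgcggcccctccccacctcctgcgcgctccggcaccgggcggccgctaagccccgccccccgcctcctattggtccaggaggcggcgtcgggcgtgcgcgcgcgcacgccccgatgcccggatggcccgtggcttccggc

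In Plk2 the capitals mark a CRE, the letters TGACGTCA, at 62 to 55 bases before the start. In Cdkn1a they mark a pair of p53 half-sites, beginning 73 and 51 bases before the start, and in Mdm2 1 half-site beginning 186 bases before it. The other listed start of Cdkn1a, with the bases chr17:29093519-29093768 before it, had no match to any motif searched. Plk3 had no match to any of the 5 motifs searched, which says only that their letters are not in this window. The search covered windows of 300 bases, 250 before and 50 after the start, on both strands, for the p53 half-site, NF-kB and CArG box consensus sequences, the CRE and the AP-1 letters TGANTCA. Promoters of 23 of the 30 measured genes were found by symbol, and the 1 overlap between matches was of a pair of NF-kB matches in Bbc3. The p53 half-site was found in 8 of the 23 genes (34.8%), against 9.55% of all 27025 genes with a promoter and 8.36% of all 32851 promoters: Aen, Ccng1, Cdkn1a, Ei24, Mdm2, Polk, Ppm1d and Sesn1. Since the genes were listed as p53 targets, that share is not independent of the list. The NF-kB match was found in 2 of 23 (Bbc3 and Steap3, 8.7% against 9.55% of all genes), the CRE in 2 (Plk2 and Ppm1d, 8.7% against 2.03%), AP-1 in 1 (Mdm4, 4.35% against 8.97%) and the CArG box in 0 (against 1.81%). The LPS minus DMSO differences of the 8 genes with a half-site had a median of 0.04 and a range of -0.04 to 0.34, and those of the 15 without one a median of 0.00 and a range of -0.24 to 0.47.

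The first question was what 1 h of LPS does to p53 targets. Plk2, which encodes a stress-induced kinase of the centrosome and cell cycle, rose by 0.47 (SE 0.08), a 1.38-fold change, and was the only one of the 30 genes to pass the threshold without the drug. Plk3, a related kinase that acts in the stress response and at the G1 to S transition, passed it only in the average LPS effect over both drug states, at 0.27 (SE 0.05). Targets of the death and DNA repair groups had 0 calls, against 0.428% of all genes in LPS minus DMSO and 0.667% in the average LPS effect. At these shares the 13 and 5 genes of those groups would seldom show a call.

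Plk2 had 10.57, 10.53 and 10.53 on the LPS arrays, against 9.99, 10.11 and 10.13 on the DMSO arrays. With the drug it had 10.60, 10.54 and 10.34 on the telmisartan+LPS arrays, against 10.14, 10.22 and 10.06 on the telmisartan arrays. All 6 arrays with LPS lay above all 6 arrays without it. The difference passed in LPS minus DMSO (limma, Benjamini-Hochberg adjusted p = 0.016) and in the average LPS effect, at 0.41 (SE 0.06, adjusted p = 0.00196 by limma). In telmisartan+LPS minus telmisartan it was 0.35 (SE 0.08) and missed the threshold (limma, adjusted p = 0.102). The call in LPS minus DMSO was lost without DMSO replicate 1 (limma, adjusted p = 0.11) or 2 and without LPS replicate 1, 2 or 3, while the difference stayed between 0.42 and 0.49. The average LPS effect on Plk2 kept its call in all 12 omissions of a single array, with the highest adjusted p at 0.00904 (limma).

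Plk3 had 6.87, 6.85 and 6.82 on the LPS arrays, against 6.72, 6.58 and 6.66 on the DMSO arrays. With the drug it had 6.74, 6.78 and 6.85 on the telmisartan+LPS arrays, against 6.38, 6.43 and 6.54 on the telmisartan arrays. Again all 6 arrays with LPS lay above all 6 without it, narrowly. LPS minus DMSO was 0.19 (SE 0.07; limma, adjusted p = 0.418), telmisartan+LPS minus telmisartan 0.34 (SE 0.07; limma, adjusted p = 0.0647), and the average LPS effect passed (limma, Benjamini-Hochberg adjusted p = 0.0212). The average call was narrow: it was lost with arrays centred on their median, where the difference was 0.22 (limma, adjusted p = 0.0537). It was also lost without LPS replicate 1 or 2, telmisartan replicate 1 or 2, DMSO replicate 2 or 3, or telmisartan+LPS replicate 3 (limma, adjusted p up to 0.0633, difference 0.25 to 0.29 over all omissions).

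Cdkn1a, whose product p21 inhibits cyclin-dependent kinases and is the best known p53 target, had 8.60, 8.72 and 8.30 on the LPS arrays, against 8.04, 8.29 and 8.26 on the DMSO arrays. With the drug it had 8.59, 8.48 and 8.28 on the telmisartan+LPS arrays, against 8.29, 8.09 and 7.97 on the telmisartan arrays. Its differences were 0.34 (SE 0.12) without and 0.33 (SE 0.12) with the drug, yet arrays overlapped with the drug and were narrowly parted without it. The average LPS effect was 0.34 (SE 0.09, 95% interval 0.15 to 0.53) and missed the threshold (limma, adjusted p = 0.115). It passed when genes with a mean under 5 were left out (limma, adjusted p = 0.0429), with trend and robust options (limma, adjusted p = 0.0398) and when LPS replicate 3 was omitted (limma, adjusted p = 0.0489).

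**Figure D2:**
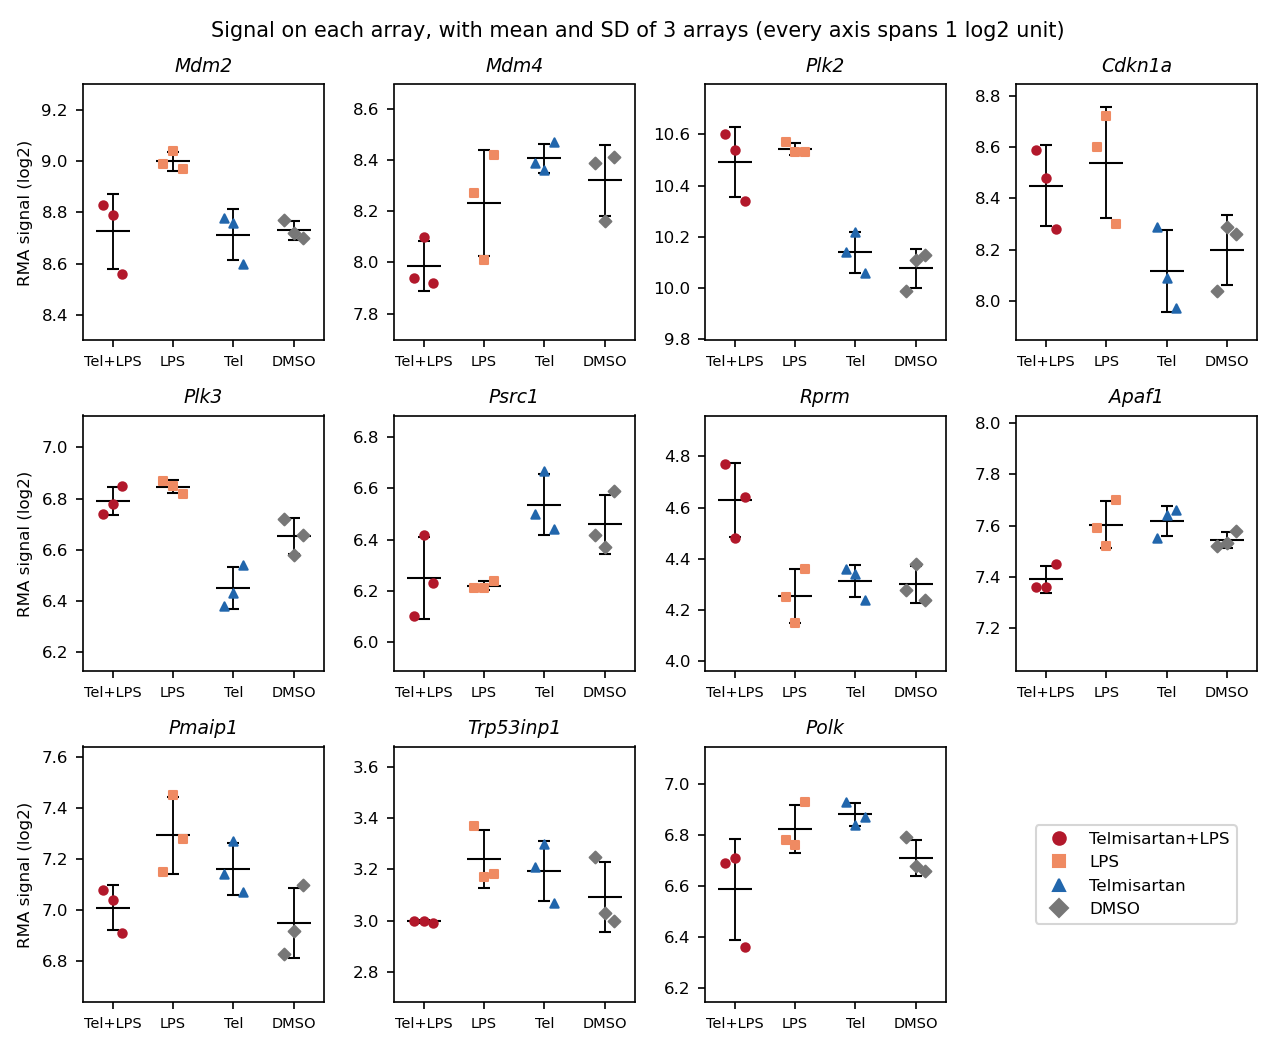
RMA signal (log2) on each array for 11 p53 targets, with points for the 3 arrays of each group, a horizontal line at the group mean and error bars of 1 SD; every vertical axis spans 1 log2 unit. Plk2 and Plk3 were higher on all 6 arrays with LPS than on all 6 without it. In each of the other genes shown, the 6 arrays with LPS overlapped the 6 without it, although some differed by more than Plk3 within 1 drug state.

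None of the 3 p53 inhibitors passed the threshold for LPS in limma with Benjamini-Hochberg adjustment. Mdm2, which p53 induces and which then degrades p53, had 8.99, 9.04 and 8.97 on the LPS arrays, against 8.77, 8.72 and 8.70 on the DMSO arrays, a difference of 0.27 (SE 0.08) that missed the threshold (limma, adjusted p = 0.303). With the drug it had 8.83, 8.79 and 8.56 on the telmisartan+LPS arrays, against 8.78, 8.76 and 8.60 on the telmisartan arrays, and the difference was 0.01 (SE 0.08). The telmisartan+LPS and telmisartan arrays overlapped and the LPS and DMSO arrays did not, but the difference between these 2 LPS effects on Mdm2, the interaction, was -0.26 (SE 0.11) and missed the threshold (limma, adjusted p = 0.634). The average LPS effect on Mdm2 was 0.14 (SE 0.06; limma, adjusted p = 0.29). Mdm4, which binds and blocks p53, had 7.94, 8.10 and 7.92 on the telmisartan+LPS arrays, against 8.39, 8.36 and 8.47 on the telmisartan arrays. That difference was -0.42 (SE 0.10; limma, adjusted p = 0.141), against -0.09 (SE 0.10) in LPS minus DMSO, and the average LPS effect was -0.25 (SE 0.07; limma, adjusted p = 0.159). With genes under a mean of 5 left out or with trend and robust options Mdm4 passed in telmisartan+LPS minus telmisartan (limma, adjusted p = 0.0494 and 0.0355). Ppm1d, a phosphatase that turns p53 signalling off, ranged only from 8.70 to 8.92 over all 12 arrays.

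Among the other cell cycle and growth genes, Psrc1, a microtubule-associated protein that acts in mitosis, was at 6.21, 6.21 and 6.24 on the LPS arrays, against 6.42, 6.37 and 6.59 on the DMSO arrays. The difference was -0.24 (SE 0.09) without and -0.29 (SE 0.09) with the drug, and the average of -0.26 (SE 0.07) missed the threshold (limma, adjusted p = 0.106), though it passed with genes under a mean of 5 left out (adjusted p = 0.034 by limma) and with arrays centred on their median (adjusted p = 0.0473 by limma). Fbxw7, a ubiquitin ligase subunit that targets cyclin E, was at 0.11 (SE 0.06) in LPS minus DMSO. Ccng1 (cyclin G1) ranged from 8.85 to 9.20 over all arrays, Zmat3, an RNA-binding protein, from 6.85 to 7.17, and Sertad1, a CDK4-binding protein, from 5.04 to 5.52. The whole cell cycle and growth group has 9 genes, Plk2, Plk3 and Cdkn1a among them. In LPS minus DMSO 44.4% had an unadjusted p under 0.05 in limma, 3 higher and 1 lower, against 9.02% of all genes. Arrays did not overlap in 55.6%, against 15.7% of all genes. With the drug 66.7% had such a p, 4 higher and 2 lower, against 13.6% of all genes. Arrays then did not overlap in 55.6%, against 17%.

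Of 13 death genes none passed the threshold for LPS in limma with Benjamini-Hochberg adjustment, without the drug, with it or on average. Over all genes 0.428%, 0.261% and 0.667% were called, so 13 genes would seldom show a call. In LPS minus DMSO 1 of 13 had an unadjusted p under 0.05, against 9.02% of all genes. That gene was Pmaip1, which encodes the BH3-only protein Noxa, with 7.15, 7.45 and 7.28 on the LPS arrays, against 6.83, 6.92 and 7.10 on the DMSO arrays. Its difference was 0.34 (SE 0.10; limma, adjusted p = 0.248), against -0.15 (SE 0.10) in telmisartan+LPS minus telmisartan. Bbc3, which encodes the BH3-only protein Puma, was dim and at 0.06 (SE 0.09 in LPS minus DMSO; limma, adjusted p = 0.886). In telmisartan+LPS minus telmisartan 2 of 13 had an unadjusted p under 0.05, both lower, against 13.6% of all genes in either direction. They were Apaf1, the scaffold of the apoptosome, at -0.23 (SE 0.07; limma, adjusted p = 0.203), and the dim Trp53inp1 at -0.20 (SE 0.09; limma, adjusted p = 0.348). In both, the groups did not overlap. Of the 13 death genes 23.1% had no overlap in that comparison, 1 higher and 2 lower, against 17% of all genes. In LPS minus DMSO 38.5% of the 13 had no overlap, 2 higher and 3 lower. There the share was 15.7% of all genes and 22.7% of those with a mean of 5 or more. Perp, a membrane protein of p53-dependent death, was at 0.27 (SE 0.13), Phlda3, an Akt inhibitor, at 0.17 (SE 0.10), Dram1, an autophagy regulator, at 0.17 (SE 0.09), Trp53inp1, a p53 cofactor, at 0.15 (SE 0.09), and the death receptor gene Tnfrsf10b at -0.17 (SE 0.11), all in LPS minus DMSO and all short of the threshold. Perp, Phlda3, Trp53inp1 and Tnfrsf10b have means under 5. The 8.43 to 8.60 of Ei24, an endoplasmic reticulum protein of the p53 response, and the 7.44 to 7.71 of Bid, which links death receptors to mitochondria, were their full ranges over all 12 arrays. Aen, a p53-induced nuclease, lay between 6.33 and 6.73, Steap3, a metalloreductase, between 7.09 and 7.32, and the receptor gene Eda2r, close to background, between 2.88 and 3.20.

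The 5 genes of DNA repair, nucleotide supply and antioxidant defence had 0 calls by limma, and 0 of 5 had an unadjusted p under 0.05 in LPS minus DMSO. Over all genes, 0.428% were called in LPS minus DMSO and 9.02% had an unadjusted p under 0.05, so so few genes would seldom show either. Their differences lay between -0.06 and 0.11 there and between -0.29 and -0.07 in telmisartan+LPS minus telmisartan. Rrm2b, the p53-induced subunit of ribonucleotide reductase, ranged from 7.11 to 7.48 over all arrays, the nucleotide excision repair genes Xpc from 5.97 to 6.38 and Ercc5 from 5.91 to 6.39, and Sesn1, a sestrin that restrains mTORC1, from 5.91 to 6.59. LPS and DMSO arrays overlapped in all 5, while they did not overlap in 15.7% of all genes. The farthest of the 5 in telmisartan+LPS minus telmisartan was Polk, a translesion DNA polymerase, at -0.29 (SE 0.09; limma, adjusted p = 0.217). Polk was the 1 of 5 with an unadjusted p under 0.05 in that comparison, against 13.6% of all genes.

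Counted over the list, 1 of 30 genes was called higher and 0 lower in LPS minus DMSO, against 0.379% of all genes called higher, 0.0496% called lower and 0.428% called in either direction. In telmisartan+LPS minus telmisartan 0 of 30 were called, against 0.261% of all genes, with 10 of 30 members at an unadjusted p under 0.05, against 13.6% of all genes and 17.7% of the 9724 genes with a mean of 5 or more. In the average LPS effect 2 of 30 were called higher and 0 lower, against 0.537% of all genes called higher and 0.131% called lower (0.667% in either direction). There 7 of 30 had an unadjusted p under 0.05, against 14.4% of all genes and 19.4% of genes with a mean of 5 or more. In LPS minus DMSO 6 of 30 had an unadjusted p under 0.05, 5 higher and 1 lower, against 9.02% of all genes (4.09% higher, 4.93% lower) and 12.3% of genes with a mean of 5 or more. Groups did not overlap in 11 of 30, 7 higher and 4 lower, against 15.7% of all genes (6.28% higher, 9.42% lower) and 22.7% of those with a mean of 5 or more. With the drug, telmisartan+LPS and telmisartan arrays did not overlap in 10 of 30, against 17% of all genes and 23.4% of those with a mean of 5 or more. The median difference of the list was 0.01 in LPS minus DMSO, -0.07 in telmisartan+LPS minus telmisartan and -0.01 on average, against -0.01, 0.01 and 0.00 over all genes. These medians were not set against genes of like signal. The calls in the list were those of Plk2 and Plk3.

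Over all genes, the called genes of telmisartan+LPS minus telmisartan were 55 higher and 3 lower, and 44 higher and 26 lower with arrays centred on their median. Those of the average LPS effect were 119 higher and 29 lower, and 99 higher and 131 lower with that centring, which lowered the all-gene median difference by 0.06 and 0.04. For the first of these comparisons the total of 58 was 31 without telmisartan replicate 3, and for the second the total of 148 was 97 without DMSO replicate 1. LPS minus DMSO and telmisartan+LPS minus telmisartan share no array, so their differences can be set side by side. The sign was the same in 19 of 30 p53 targets (63.3%), against 54.3% of all genes, with Pearson's r = 0.382 and Spearman's rho = 0.261 over the 30 genes and 0.34 and 0.177 over all genes. Without Plk2 and Plk3 r was 0.212 over 28 genes. These values describe genes measured on the same arrays, which are not independent of each other.

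**Figure D3:**
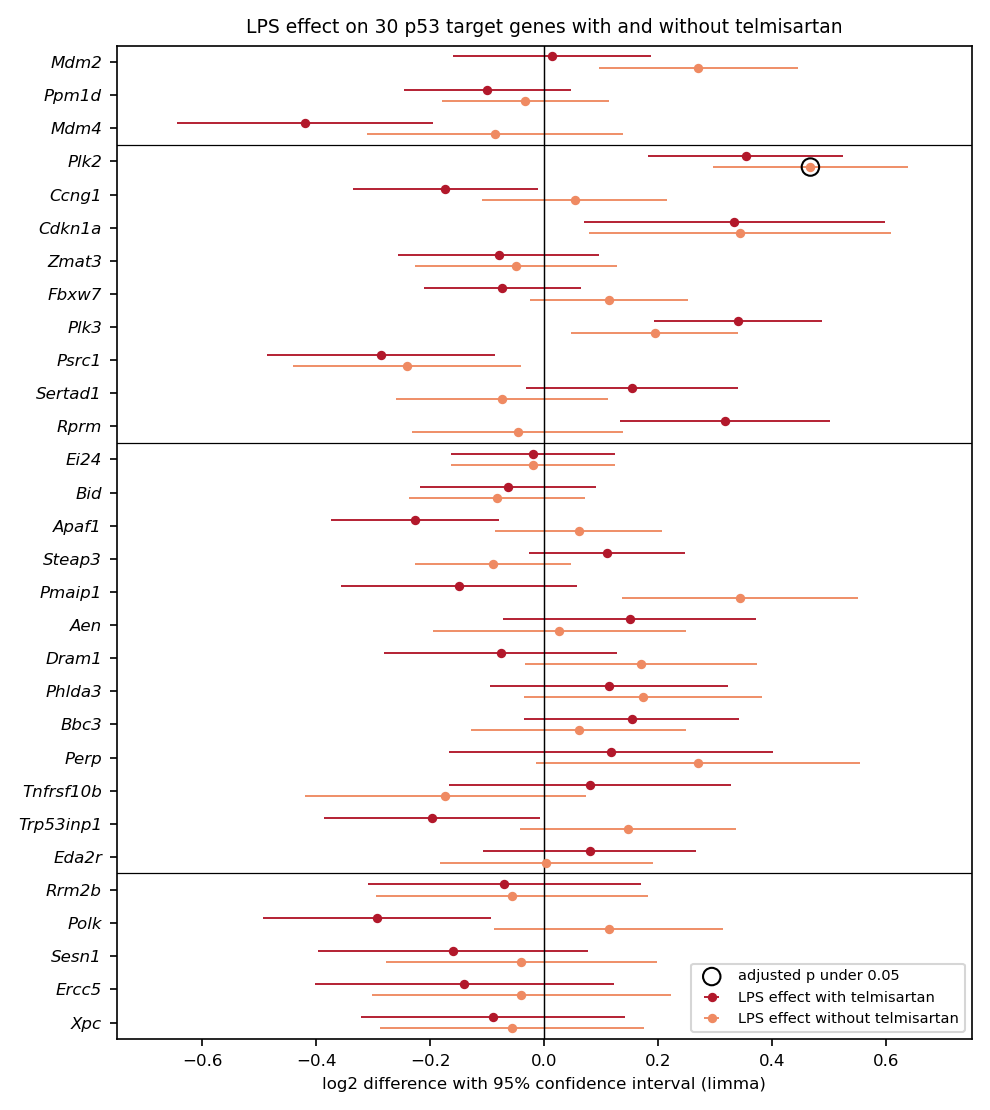
LPS effect (log2 difference with the 95% confidence interval of the limma fit) on each of 30 p53 targets, in telmisartan-treated cells (dark points, telmisartan+LPS minus telmisartan) and in vehicle-treated cells (light points, LPS minus DMSO); genes are ordered by role and a ring marks an adjusted p under 0.05. Plk2 without the drug, at 0.47, carries the only ring, and Mdm4 lies farthest to the left at -0.42 with the drug.

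The second question was what telmisartan does to these genes. No p53 target passed the threshold with or without LPS. The drug alone gave differences between -0.29 for Sertad1 and 0.21 for Pmaip1, and the drug before LPS differences between -0.28 for Pmaip1 and 0.38 for Rprm, a p53-induced inhibitor of G2.

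In telmisartan minus DMSO, Sertad1 had 5.07, 5.26 and 5.04 on the telmisartan arrays, against 5.52, 5.47 and 5.24 on the DMSO arrays, a difference of -0.29 (SE 0.09; limma, adjusted p = 0.86). The groups overlapped in Sertad1. Plk3 was at -0.20 (SE 0.07; limma, adjusted p = 0.872), with all 3 telmisartan arrays below all 3 DMSO arrays. Pmaip1 was at 0.21 (SE 0.10), Ercc5 at 0.20 (SE 0.12), Polk at 0.17 (SE 0.09), Dram1 at 0.17 (SE 0.09) and Bbc3 at 0.11 (SE 0.09). Cdkn1a was at -0.08 (SE 0.12) and Mdm2 at -0.02 (SE 0.08), with intervals of -0.34 to 0.18 and -0.19 to 0.16, and the sign of Mdm2 turned without DMSO replicate 1 or telmisartan replicate 3. Limma called 0 of 30 members and 0% of all genes, and 3 of 30 members had an unadjusted p under 0.05, against 5.51% of all genes and 5.36% of genes with a mean of 5 or more. Telmisartan and DMSO arrays did not overlap in 5 of 30 (Ccng1, Bbc3, Polk and Dram1 higher, Plk3 lower), against 11.4% of all genes and 14.2% of those with a mean of 5 or more.

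Rprm had 4.77, 4.48 and 4.64 on the telmisartan+LPS arrays, against 4.25, 4.15 and 4.36 on the LPS arrays, and 4.36, 4.34 and 4.24 on the telmisartan arrays, against 4.28, 4.38 and 4.24 on the DMSO arrays. The 3 arrays with both agents were above the other 9. Against telmisartan alone the difference was 0.32 (SE 0.09; limma, adjusted p = 0.18). The difference of 0.38 (SE 0.09) from LPS alone ranked 58th of all genes by the size of its moderated t and missed the threshold (limma, Benjamini-Hochberg adjusted p = 0.271). Rprm is dim, and its difference from LPS alone was 0.31 without telmisartan+LPS replicate 1, 0.45 without replicate 2 and 0.37 without replicate 3.

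Several targets were lower with the drug before LPS than with LPS alone, none past the threshold. Mdm2 was at -0.27 (SE 0.08; limma, adjusted p = 0.36), with all telmisartan+LPS arrays below all LPS arrays, and at -0.19 without telmisartan+LPS replicate 3, its lowest array. Pmaip1 had 7.08, 7.04 and 6.91 on the telmisartan+LPS arrays, below every LPS array, a difference of -0.28 (SE 0.10; limma, adjusted p = 0.382). Apaf1 had 7.36, 7.36 and 7.45 on the telmisartan+LPS arrays, against 7.59, 7.52 and 7.70 on the LPS arrays, a difference of -0.21 (SE 0.07; limma, adjusted p = 0.371). Trp53inp1 was at -0.24 (SE 0.09), where telmisartan+LPS had 3.00, 3.00 and 2.99, near the bottom of the array's range. Polk was at -0.24 (SE 0.09). Omitting telmisartan+LPS replicate 3 gave -0.12, since this array had 6.36 against 6.69 and 6.71 in replicates 1 and 2. Bbc3 was the other way, at 0.21 (SE 0.09), and at 0.11 without that same replicate. Cdkn1a was at -0.09 (SE 0.12, interval -0.35 to 0.17). LPS minus DMSO and telmisartan+LPS minus LPS share the LPS arrays, so their differences are not independent.

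Limma called 0 of 30 members in telmisartan+LPS minus LPS and 0% of all genes. Of the members 9 of 30 had an unadjusted p under 0.05, 3 higher and 6 lower, against 9.81% of all genes (5.5% higher, 4.31% lower) and 12.7% of those with a mean of 5 or more. Groups did not overlap in 8 of 30, 2 higher and 6 lower, against 13% of all genes (6.74% higher, 6.23% lower) and 17.3% of those with a mean of 5 or more. The difference was above 0 in 8 of 30, against 53.7% of all genes, and its median over the list was -0.04, against 0.01 over all genes. Of the members 23 had a mean of 5 or more, against 43.8% of all genes. Signs and medians of the list were not set against genes of like signal. Telmisartan minus DMSO and telmisartan+LPS minus LPS share no array. The sign was the same in 15 of 30 members (50%), against 46.7% of all genes, with r = -0.148 and rho = -0.144 over the 30 genes.

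Averaged over both LPS states, the telmisartan effect was 0.19 (SE 0.06) on Rprm, -0.17 (SE 0.06) on Sertad1, 0.16 (SE 0.06) on Bbc3, -0.15 (SE 0.08) on Sesn1, -0.14 (SE 0.06) on Mdm2 and -0.13 (SE 0.05) on Plk3. None passed, the smallest adjusted p among the 30 being 0.563 (limma, Benjamini-Hochberg adjusted). Limma called 0 of 30 members, against 0.00451% of all genes, which is 1 gene, and that call was lost in 9 of the 12 omissions of a single array. Of the members 5 of 30 had an unadjusted p under 0.05, against 7.32% of all genes and 8.34% of those with a mean of 5 or more. For Plk2 the average was 0.01 (SE 0.06, 95% interval -0.11 to 0.13).

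**Figure D4:**
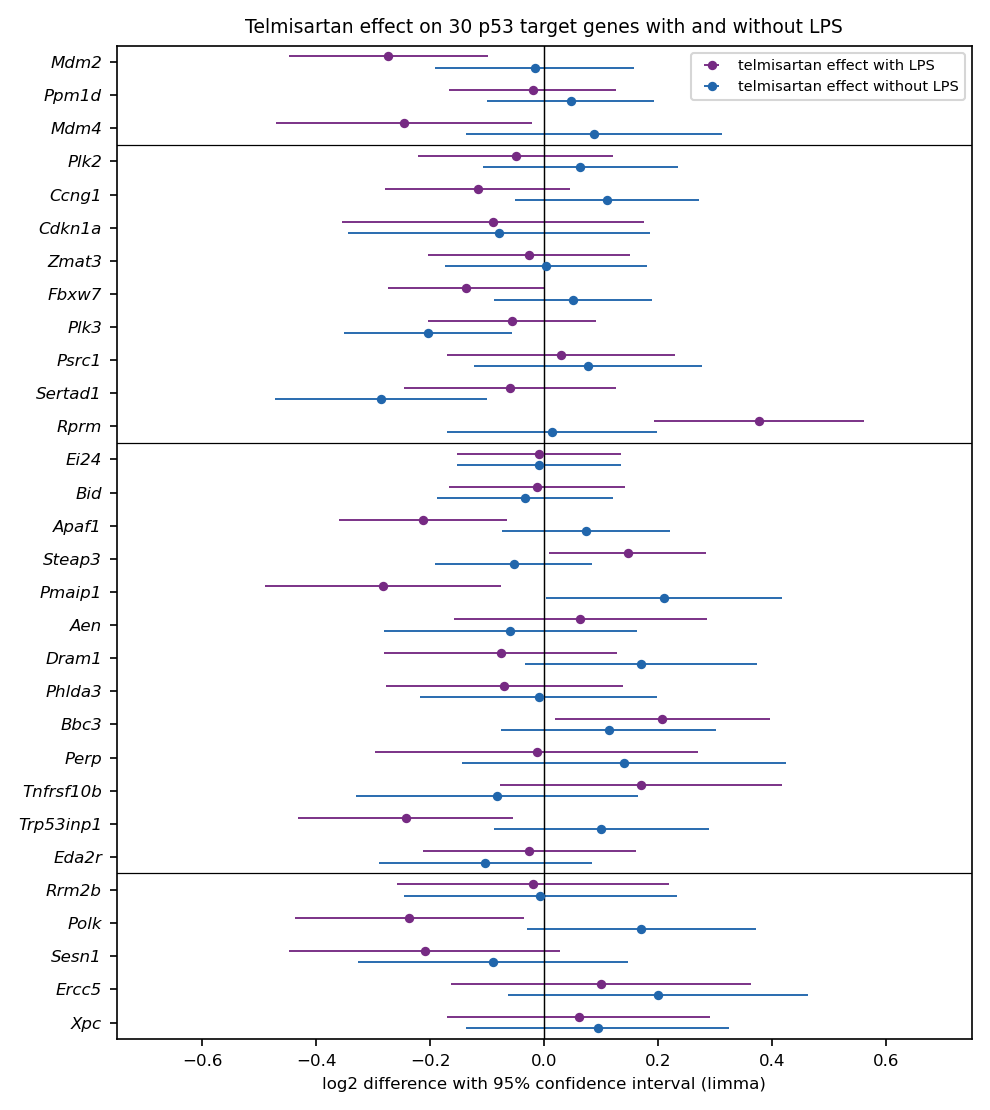
Telmisartan effect (log2 difference with the 95% confidence interval of the limma fit) on each of 30 p53 targets, with LPS (purple points, telmisartan+LPS minus LPS) and without it (blue points, telmisartan minus DMSO), ordered by role. No gene carries a ring for an adjusted p under 0.05, and Rprm lies farthest to the right at 0.38 with LPS.

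The third question was whether the LPS effect itself differed with the drug. The interaction, the LPS effect with telmisartan minus that without it, passed for 0 of 30 p53 targets and 0% of all genes, while 8 of 30 members had an unadjusted p under 0.05, against 7.78% of all genes and 9.7% of genes with a mean of 5 or more. The farthest from 0 was Pmaip1 at -0.49 (SE 0.14), followed by Polk at -0.41 (SE 0.13), Rprm at 0.36 (SE 0.12), Trp53inp1 at -0.34 (SE 0.12), Mdm4 at -0.33 (SE 0.15) and Apaf1 at -0.29 (SE 0.10). The smallest adjusted p among them was 0.604 (limma, Benjamini-Hochberg adjusted). For Polk, telmisartan+LPS had 6.69, 6.71 and 6.36, LPS 6.78, 6.76 and 6.93, telmisartan 6.93, 6.84 and 6.87, and DMSO 6.79, 6.68 and 6.66. Without telmisartan+LPS replicate 3 its interaction was -0.29. The median interaction over the list was -0.05, against 0.02 over all genes, and was not set against genes of like signal. For Plk2 the interaction was -0.11 (95% interval -0.36 to 0.13) and for Plk3 0.15 (95% interval -0.06 to 0.35), so neither differed from 0 beyond its error.

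Other genes of the p53 pathway, from a second list of which 52 were measured, included larger LPS differences than the 30 above. In LPS minus DMSO 3 of 52 were called higher and 1 lower (7.69%), against 0.428% of all genes in either direction. Since this list was chosen with earlier results of these data known, that share is not independent of the choice. Btg2, an antiproliferative factor, rose by 1.10 (SE 0.12), the death receptor gene Fas by 1.04 (SE 0.10) and Lif, a cytokine gene, by 0.59 (SE 0.08), and Gadd45g, a growth arrest gene, fell by 0.63 (SE 0.11; limma, Benjamini-Hochberg adjusted p = 7.75e-05 for Fas, 0.000312 for Btg2, 0.00202 for Lif and 0.0239 for Gadd45g). The Gadd45g call was lost without any one of the 3 LPS or 3 DMSO arrays (limma, adjusted p up to 0.127), while its difference stayed between -0.68 and -0.55. In telmisartan+LPS minus telmisartan 1 of 52 was called (1.92%, against 0.261% of all genes), Btg2, which rose by 1.09 (SE 0.12; limma, adjusted p = 0.000446). In cells with the drug before LPS, Fas was at -0.59 (SE 0.10), Sesn2 at 0.46 (SE 0.11), Tap1, a peptide transporter, at 0.26 (SE 0.09) and Lif at -0.23 (SE 0.08) against LPS alone, and 0 of 52 passed in limma (smallest adjusted p = 0.134), with 10 of 52 at an unadjusted p under 0.05, against 9.81% of all genes and 12.7% of those with a mean of 5 or more.

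Genes that are lowered through p21 and the DREAM repressor complex, most of them acting in mitosis, had 0 calls by limma among 22 measured. In LPS minus DMSO 20 of 22 had a difference below 0, with a median of -0.09 and a range of -0.22 to 0.08. Over all genes the median was -0.01, with 46.7% above 0. Of the 22 genes 6 had an unadjusted p under 0.05, all lower, against 9.02% of all genes (4.93% lower) and 12.3% of those with a mean of 5 or more. Those with the largest absolute moderated t were the anaphase activator gene Cdc20 at -0.22 (SE 0.08), the mitotic kinase gene Aurka at -0.18 (SE 0.07), the kinesin gene Kif2c at -0.17 (SE 0.07) and the survivin gene Birc5 at -0.17 (SE 0.07). In telmisartan+LPS minus telmisartan 19 of 22 were below 0, with a median of -0.11, against a median of 0.01 over all genes, of which 53.7% were above 0. There 2 of 22 (9.09%) had an unadjusted p under 0.05, against 13.6% of all genes and 17.7% of those with a mean of 5 or more. Groups did not overlap in 9 of 22 (40.9%), all lower. The either-direction shares were 17% of all genes (8.95% lower) and 23.4% of those with a mean of 5 or more. In LPS minus DMSO groups did not overlap in 6 of 22 (27.3%), all lower. There the either-direction shares were 15.7% of all genes (9.42% lower) and 22.7% of those with a mean of 5 or more. These genes are bright, and their signs and medians were not set against genes of like signal. In telmisartan+LPS minus LPS 11 of 22 were above 0 and 10 below it, with Plk4 at -0.25 (SE 0.07), Foxm1 at 0.13 (SE 0.08), Kif2c at 0.12 (SE 0.07) and Bub1 at -0.10 (SE 0.06).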

How the data were processed

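RNA of BV2 cells was hybridised to 12 Affymetrix mouse gene arrays, MoGene-2_0 per the file headers (the labels' protocol names MoGene-1_0). The authors deposited RMA signals on a log2 scale per the file headers, made with an Affymetrix engine of version 1.4.1.46 per the submitters' processing notes. The deposited table has 41345 features, of which 23521 carry 1 gene symbol, 1820 several and 16004 none. The brightest feature of each symbol was kept, which left 22180 genes. limma 3.58.1 in R 4.3.3 fitted all 12 arrays with 1 mean per group (lmFit, eBayes), and p-values were adjusted by Benjamini-Hochberg over all genes, with calls at an adjusted p under 0.05. The fit was checked on simulated data. In LPS minus DMSO it recovered 2 of 50 genes changed 1.2-fold, 9 of 50 changed 1.3-fold, 40 of 50 changed 1.5-fold and 48 of 50 changed 2-fold. A gene that was not called can therefore have changed by such small amounts. The number of arrays, 3 per group, limits the precision. Alternatives were the 5-decimal table, a filter at a mean of 5, trend and robust options, averaged features, array weights, median centring, fits of the compared groups alone and omission of each array. Members and lists were chosen with earlier results of these data known. Differences are given for called members, the 12 (LPS minus DMSO) or 6 (elsewhere) with the largest absolute moderated t, and, in LPS minus DMSO, telmisartan minus DMSO and telmisartan+LPS minus LPS, Mdm2, Cdkn1a and Bbc3; a few further differences were added after their values were seen. From the other lists they are given for called genes and the 4 with the largest absolute moderated t. Values on each array are given for called members, Mdm2 and Cdkn1a, and for others that were picked after their values were seen.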

Additional observations from a re-analysis of the deposited data

How the results depend on the processing

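Of 79 differences of single genes, 72 kept their direction and side of the threshold under each of the 7 alternatives that keep all arrays. More genes passed when those under a mean of 5 were removed and, separately, under limma's trend and robust options: 9 and 14 against 0 in telmisartan+LPS minus LPS, 182 and 164 against 58 in telmisartan+LPS minus telmisartan (35 when only the compared groups were fitted), 3 and 1 against 0 in the interaction, 360 and 281 against 148 in the average LPS effect (230 with arrays centred on their median), and 13 and 12 against 1 in the average telmisartan effect. Both settings called 3 members in telmisartan+LPS minus telmisartan against 0 (Mdm4, Plk2 and Plk3), and the filter called 4 against 2 in the average LPS effect. The member median moved to -0.13 in telmisartan+LPS minus telmisartan with centring, and in the average LPS effect to -0.06 with the filter and -0.05 with centring. Leaving out 1 array at a time gave 0 to 1 members in LPS minus DMSO and 1 to 3 in the average LPS effect. It gave 0 to 5 genes in telmisartan+LPS minus LPS, 31 to 66 in telmisartan+LPS minus telmisartan, 0 to 3 in the interaction, 97 to 158 in the average LPS effect and 0 to 1 in the average telmisartan effect. The sign turned for Mdm2 in telmisartan+LPS minus telmisartan (0.01, against -0.047 with centring and -0.043 to 0.10 over omissions) and in telmisartan minus DMSO (-0.05 to 0.04), and in LPS minus DMSO for Mdm4 (-0.18 to 0.025) and Rprm (-0.10 to 0.005). The cause was not tested. No paired analysis was made, because the titles carry only a running number for each array and no replicate number shared between groups. Along these numbers the treatments recur in the same order, but no label says that such a run of arrays shared a batch. A fit with such runs as blocks was not made.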
